A study of Mus musculus with 10 samples.

Results

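Neurofilament subunits and microtubule-associated proteins form the skeleton of a neurite, and the transcripts of 10 such genes were followed in neurites of cultured mouse cortical neurons. The genes were named as a family of structural proteins, with earlier results of these data known: the neurofilament genes Nefl, Nefm, Nefh and Ina, the microtubule-associated genes Map1a, Map1b, Map2 and Mapt, and Dcx and Dpysl2, which encode doublecortin and Crmp2. All 10 were found once among the 45195 gene IDs of the matrix, and all 10 were among the 15712 genes tested, those that reached a value of 1 in 2 libraries or more. Nefh reached a value of 1 in 7 of 10 libraries, of which 2 were naive, and the other 9 genes reached it in every library.

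As background, neurofilaments are intermediate filaments assembled from the light, medium and heavy subunits together with alpha-internexin, and their amount is known for setting the calibre of axons. Tau, encoded by Mapt, and Map1b are known in axons, whereas Map2 is known as the microtubule-associated protein of dendrites and cell bodies. Doublecortin binds microtubules in young and migrating neurons, and Crmp2 binds tubulin dimers and is known for its part in axon outgrowth.

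Cortical neurons from E16.5 embryos were grown on membranes with 3 µm pores, through which neurites pass to the underside, and neurites were lysed on day 8 after the cell bodies had been wiped off the upper side. The groups were naive wild-type neurites (C57BL/6, 3 libraries), injured wild-type neurites (C57BL/6, 3 libraries), naive knockout neurites (Cpeb1 flox/flox on C57BL/6, 2 libraries) and injured knockout neurites (Cpeb1 flox/flox on C57BL/6, 2 libraries). All cultures, wild type included, received AAV2 carrying Cre under the ubiquitous CAG promoter at plating. For the injured groups, neurites had been scraped off the underside on day 7, and the neurites found there 24 hours later were lysed. Injury and the age of the neurites on the underside thus cannot be told apart. The labels do not say that replicates were separate cultures, so p-values measure the spread between these libraries, which may be technical. The values are per-length expression values of the authors, taken as FPKM (fragments per kilobase of transcript, scaled to the mapped fragments). Whether they are FPKM or TPM could not be told from the values, and the depth of the libraries is treated as unknown.

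The column totals ranged from 726420 to 1171842, and 12231 to 13143 genes per library reached a value of 1. The library labelled wild-type injured replicate 3 correlated least with the remaining libraries (mean of 0.839 against 0.867 to 0.898 for the rest). Cpeb1 itself was at 7.16, 5.96 and 5.86 in naive wild type, 1.65, 13.8 and 22.6 in injured wild type, 5.97 and 0.356 in naive knockout and 1.14 and 3.15 in injured knockout libraries. The library labelled knockout naive replicate 1 thus lay within the range of the naive wild-type libraries, and wild-type injured replicate 1 (1.65) lay between the injured knockout libraries. Which exons were deleted is not given in the sources used here, so these values are no full check of the genotype. Results are given with all libraries, and with these libraries (wild-type injured replicate 3 and knockout naive replicate 1) left out where a call on a member is made. Wild-type injured replicate 1 stayed in. Values without it are given for Map2, for Nefl, and for the genotype effects of Nefm and Dpysl2.

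The neuron markers Tubb3, Snap25, Syt1, Stmn2, Gap43 and Rbfox3 were all detected in every group. Their summed value was 2999 to 3389 in naive and 1907 to 2647 in injured wild-type libraries, and 3584 to 4023 in naive and 2794 to 3768 in injured knockout libraries. Astrocyte markers were present as well and went the other way, with sums over 8 genes of 294 to 364, 461 to 915, 402 to 409 and 486 to 566 in the same order. Radial glia and progenitor markers gave sums over 6 genes of 2274 to 2804, 2552 to 4782, 3138 to 4215 and 3780 to 3814. Those of the oligodendrocyte lineage gave 146 to 166, 159 to 389, 107 to 203 and 231 to 236, again in this order. The neurites were thus measured together with RNA of glia, and fewer neurites and less RNA of a gene per neurite cannot be told apart in such bulk samples. In injury averaged over genotypes, where the 2 genotypes count equally, the 6 neuron markers all lay below 0 (median -0.49) without a call in limma, and 7 of 8 astrocyte markers lay above 0, with Sox9 called (1.19 ± 0.24, limma, adjusted p = 0.0496). Microglial markers summed to 18.4 at most and those of endothelium and mural cells to 19.2 at most. Nuclear RNAs, a sign of cell bodies, summed over 6 genes to 2775 to 4198 in naive and 6095 to 7328 in injured wild-type libraries, without overlap, and to 2341 to 3222 in naive and 1824 to 2973 in injured knockout libraries. In wild-type injury 1 of the 6, Malat1, passed the test, higher in injured neurites, while 4 lay below 0 and the list's median was -0.32. Malat1 was also the 1 of 6 that passed between genotypes in injured neurites, lower in the knockout.

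**Figure D1:**
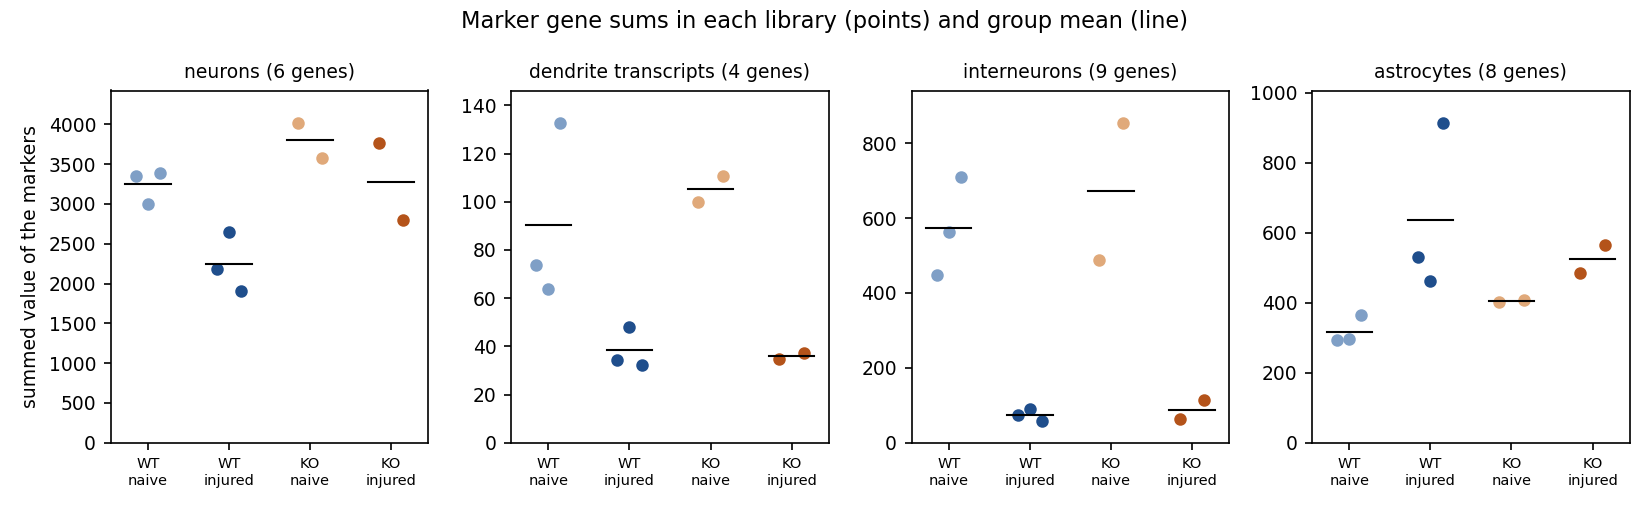
Summed value of 4 marker lists (vertical axis, deposited per-length value) in each library, by group (WT, wild type; KO, knockout). Points are libraries and lines are group means. Interneuron markers summed to 449 to 855 in naive and 56.9 to 113 in injured libraries. Neuron markers overlapped between the conditions in the knockout but not in wild type, where they summed to 2999 to 3389 in naive and 1907 to 2647 in injured libraries.

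Because Cpeb1 encodes a protein that binds short U-rich elements in the 3' untranslated regions of messenger RNAs, the members' annotated 3' untranslated regions were searched for the elements TTTTAT and TTTTAAT in the sense of the messenger RNA. Map1b held 10 matches in 4360 bases, Dcx 6 in 7709, Map2 5 in 3576, Dpysl2 5 in 2481, Nefl 3 in 1648 and Nefm 2 in 2234, while Nefh, Ina and Mapt held 1 each and Map1a none in 2745 bases. Of 13112 tested genes with an annotated 3' untranslated region, 63.0% held at least 1 match, and among regions within 20% of the length of that of Map2 the share was 92.2%. A match is thus common in regions of such length. Taken in this way for each of the 10 genes, the share ran from 44.5% for the short region of Nefh to 99.2% for Dcx. The match nearest to the 3' end of each of the 9 genes follows, to let the elements and their surroundings be compared. Each window has 30 bases (from the GENCODE M21 transcripts, build mm10, written 5′ to 3′ as the messenger RNA with T for U, the element in capitals).
Nefl: tagacttagaaaTTTTATctaaaactgaag (chr14:68088786-68088815, plus strand, 298 bases before the end of the transcript)
Nefm: gcctccttttatTTTTATttctatttcttt (chr14:68083249-68083278, minus strand, 677 bases before the end)
Nefh: cggcgtaataaaTTTTATttcttcctttcc (chr11:4939253-4939282, minus strand, 517 bases before the end)
Ina: atgtataggacaTTTTATcaccagacacaa (chr19:47024754-47024783, plus strand, 562 bases before the end)
Map1b: aatatgtagtgcTTTTATgatatttgtgtg (chr13:99421567-99421596, minus strand, 139 bases before the end)
Map2: acaagaaggaatTTTTATaggagacagaca (chr1:66441397-66441426, plus strand, 1175 bases before the end)
Mapt: ctctgccttttcTTTTATctaagtggatgc (chr11:104329653-104329682, plus strand, 2426 bases before the end)
Dcx: tacagaaaatgcTTTTATggccattttcaa (chrX:143856952-143856981, minus strand, 1128 bases before the end)
Dpysl2: ttttaatttttgTTTTATtttttgtaacca (chr14:66802979-66803008, minus strand, 133 bases before the end)

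The distance of the last element from the transcript end ran from 133 bases in Dpysl2 to 2426 bases in Mapt, and the Dpysl2 window also holds a TTTTAAT element, in lower case at its start. The 2 matches of Nefm are adjacent, and its window holds the other in lower case directly before the capitals. These matches lie in the longer of the 2 annotated Nefm transcripts only. The 3' untranslated region of the shorter transcript, of 754 bases, holds none. A match of letters is a description and no binding site. Genotype effects on these 10 genes are given at the end, beside the injury effects.

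Compared per length, Mapt was the most abundant of the 10 transcripts in every library, with values from 448 to 666, above at least 98.4% of the genes tested. In naive libraries it was followed by Map2 (262 to 344) and Map1b (254 to 303), whose ranges overlapped, and Dpysl2 (210 to 254), which touched that of Map1b. Ina (117 to 157), Dcx (46.3 to 82.7) and Nefl (31.2 to 42.5) came next without overlap between neighbours. Map1a (8.18 to 17.8) and Nefm (2.39 to 11.3) overlapped, and Nefh was lowest (0.176 to 1.31). The light, medium and heavy subunits thus sat well below Ina in naive neurites.

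The injury comparison asks which of these transcripts differed in the neurites found on the underside 24 hours after scraping. Map2 was the one gene of the 10 that passed the test, and it fell. Its value was 314, 344 and 311 in naive and 201, 178 and 170 in injured wild-type libraries, and 262 and 314 in naive and 179 and 115 in injured knockout libraries. All 5 injured libraries lay below all 5 naive ones, as they did for 1.79% of the genes tested. On the log2(value + 1) scale, on which every fold change here is given, the injury effect averaged over genotypes was -0.91 ± 0.15 (SE; adjusted p = 0.0130 in limma, adjusted over 15712 genes), where 0.566% of the genes passed, 0.280% lower and 0.286% higher. In the groups taken singly Map2 did not pass, with -0.82 ± 0.19 in wild type (limma, adjusted p = 0.0593) and -0.99 ± 0.23 in the knockout (limma, adjusted p = 0.309).

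The call for Map2 held with the libraries that stood apart left out (-0.95 ± 0.16, adjusted p = 0.0398 in limma, an alternative chosen after seeing the data) and without wild-type injured replicate 1 (-0.94 ± 0.15, adjusted p = 0.0276 in limma). It was lost without wild-type naive replicate 2 (adjusted p = 0.0571), knockout naive replicate 2 (0.116) or knockout injured replicate 2 (0.0751), in each case in limma with the same direction. It was also lost when libraries were scaled to equal neuron markers, another alternative chosen after seeing the data, where it was -0.35 ± 0.17 (limma, adjusted p = 0.250). The transcripts Camk2a, Shank1, Ddn and Dlgap3, known from dendrites, moved beside Map2: their sum was 63.9 to 133 and 100 to 111 in naive and 32.3 to 48.2 and 34.7 to 37.1 in injured wild-type and knockout libraries. Of these 4, Camk2a passed the test averaged over genotypes (-1.53 ± 0.24, adjusted p = 0.0118 in limma). All 9 interneuron markers had averaged effects below 0, with a median of -2.26, and 4 of them passed the test (Gad1, Dlx1, Sst and Npy). Of the 6 projection neuron markers 3 lay above and 3 below 0, with a median of -0.24 and no call in limma. Their sum was 217 to 246 in naive and 209 to 288 in injured wild-type libraries. It was 270 to 291 in naive and 306 to 364 in injured knockout libraries. The part of these marker lists in the Map2 result was not tested.

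**Figure D2:**
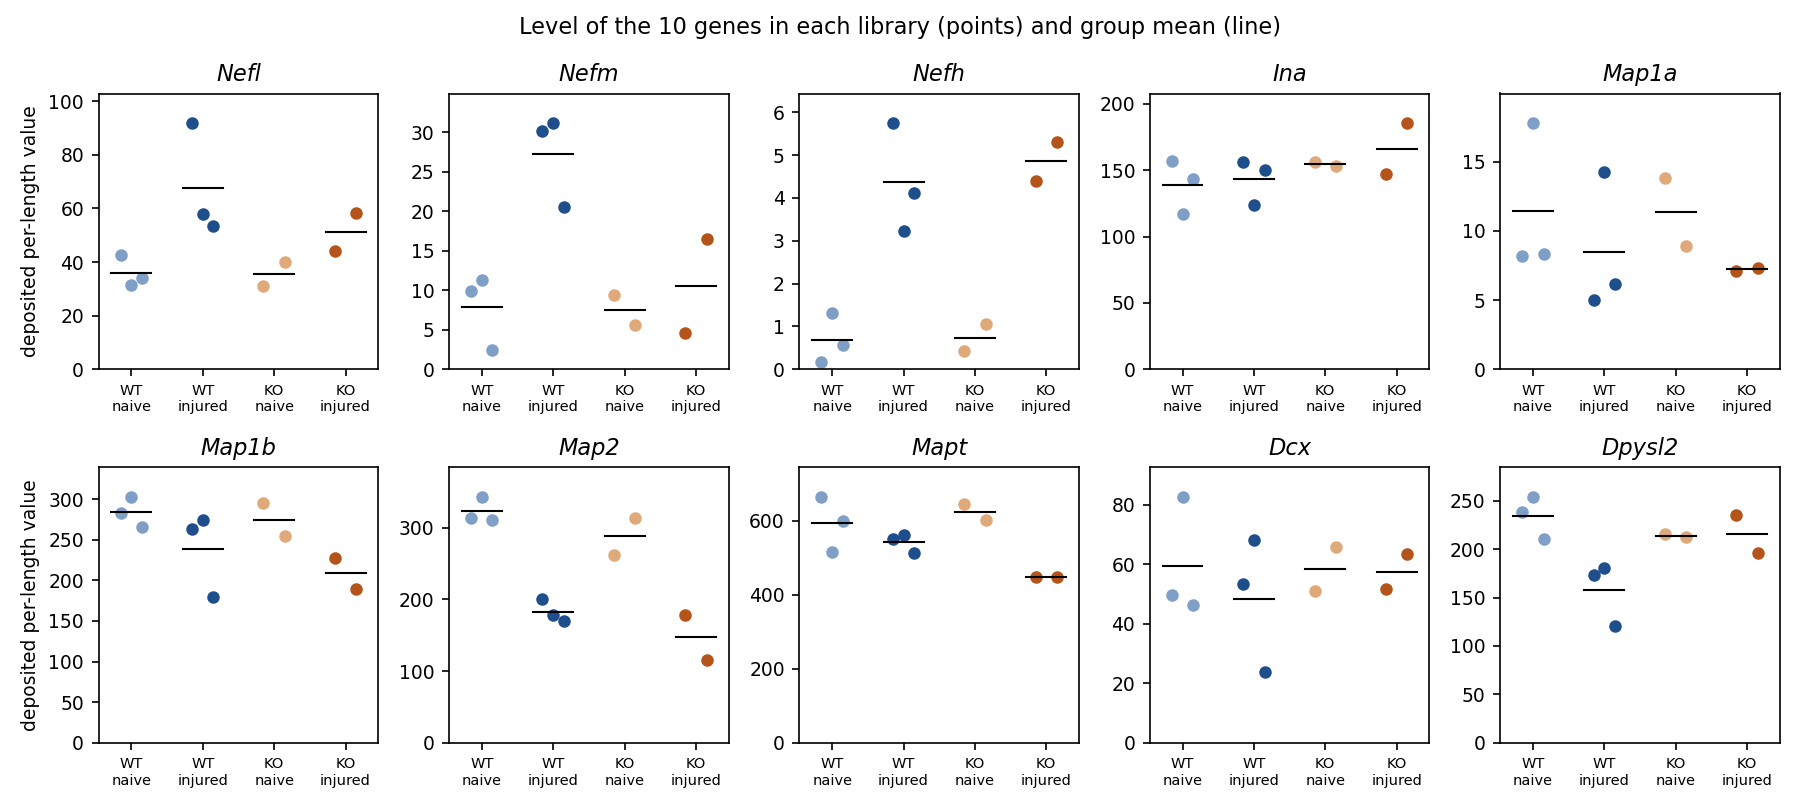
Level of each of the 10 genes (vertical axis, deposited per-length value, starting at 0) in each library, by group. Points are libraries and lines are group means; Map2 lay between 262 and 344 in naive and between 115 and 201 in injured libraries, and Nefl and Nefh of all injured libraries lay above all naive ones.

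Mapt, the axonal counterpart of Map2 in textbooks, differed less between the conditions. Its values were 666, 517 and 600 in naive and 552, 562 and 512 in injured wild-type libraries, and 646 and 603 in naive and 448 and 448 in injured knockout libraries. The wild-type groups overlapped and the knockout groups did not. The injury effect was -0.13 ± 0.14 in wild type, -0.48 ± 0.17 in the knockout and -0.30 ± 0.11 averaged over genotypes (limma, adjusted p = 0.745, 0.754 and 0.315).

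Within a library, the ratio of 2 genes does not depend on how the library was scaled. The ratio of Mapt to Map2 was 2.12, 1.50 and 1.93 in naive and 2.75, 3.15 and 3.02 in injured wild-type libraries, and 2.46 and 1.92 in naive and 2.51 and 3.89 in injured knockout libraries. Every injured library lay above every naive one, by a small margin for knockout injured replicate 1 (2.51) over knockout naive replicate 1 (2.46). The mean log2 ratio was higher by 0.70 in wild type and by 0.52 in the knockout, and by 0.61 averaged over both (exact permutation test within genotype, two-sided, p = 0.01667, the smallest that the 120 arrangements give, adjusted p = 0.0333 over 6 ratios, which were chosen with earlier results of these data known). Tau transcript thus rose relative to Map2 transcript in injured neurites, while its own value did not pass the test.

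The 2 large microtubule-associated genes of the same family, Map1a and Map1b, had lower group means after injury but passed no test. Map1b was at 283, 303 and 266 in naive and 263, 274 and 180 in injured wild-type libraries, and at 295 and 254 in naive and 227 and 190 in injured knockout libraries. Its groups overlapped in wild type, and wild-type injured replicate 3 was the lowest of all. The averaged effect was -0.33 ± 0.15 (limma, adjusted p = 0.416). Map1a, which gains on Map1b as neurons mature, was at 8.18, 17.8 and 8.36 in naive and 5.02, 14.2 and 6.17 in injured wild-type libraries, and at 13.8 and 8.91 in naive and 7.10 and 7.35 in injured knockout libraries. Within both wild-type groups replicate 2 stood well above the other libraries. Its averaged effect was -0.50 ± 0.38 (limma, adjusted p = 0.673), and the log2 ratio of Map1a to Map1b differed by -0.22 (exact permutation test, p = 0.467, adjusted p = 0.58).

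The neurofilament genes with the light, medium and heavy subunits had higher values in injured neurites, without a call. Nefl, the subunit on which the filament core is built, was at 42.5, 31.5 and 34.0 in naive and 91.9, 58.1 and 53.3 in injured wild-type libraries, and at 31.2 and 40.2 in naive and 44.3 and 58.2 in injured knockout libraries. All 5 injured libraries were above all 5 naive ones, as they were for 1.27% of the genes tested. The group means differed by 1.88 times in wild type and by 1.43 times in the knockout. The injury effect was 0.86 ± 0.27 in wild type, 0.51 ± 0.33 in the knockout and 0.69 ± 0.21 averaged over genotypes (limma, adjusted p = 0.188, 0.949 and 0.219). In wild type it was 0.63 ± 0.26 without wild-type injured replicate 1, the highest library (limma, adjusted p = 0.306).

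Nefh encodes the heavy subunit, which is known to be made late in the maturation of neurons. It was at 0.176, 1.31 and 0.571 in naive and 5.75, 3.24 and 4.10 in injured wild-type libraries, and at 0.431 and 1.05 in naive and 4.40 and 5.31 in injured knockout libraries. The lowest injured library, at 3.24, lay above the highest naive one, at 1.31, and the groups were separate in both genotypes. Group means were 0.685 ± 0.574 and 4.36 ± 1.27 in wild type (SD, n = 3 each), 6.37 times apart, and 0.739 ± 0.436 and 4.85 ± 0.643 in the knockout (SD, n = 2 each), 6.57 times apart. The averaged effect was 1.73 ± 0.42 (limma, adjusted p = 0.104), a scale that understates the change of such a low gene. With no reads in hand, the counting error behind values near 1 is not known.

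Nefm, the medium subunit, was at 9.84, 11.3 and 2.39 in naive and 30.1, 31.2 and 20.5 in injured wild-type libraries, and at 9.43 and 5.54 in naive and 4.59 and 16.4 in injured knockout libraries. The wild-type groups did not overlap, whereas in the knockout 1 injured library lay below both naive ones. The effect was 1.86 ± 0.56 in wild type, 0.26 ± 0.69 in the knockout and 1.06 ± 0.45 averaged over genotypes (limma, adjusted p = 0.175, 1 and 0.391).

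Alpha-internexin, encoded by Ina and known as the neurofilament subunit that young neurons make first, was at 157, 117 and 143 in naive and 156, 124 and 150 in injured wild-type libraries. It was at 156 and 153 in naive and 147 and 186 in injured knockout libraries. The groups overlapped in both genotypes, and the averaged effect was 0.07 ± 0.15 (limma, adjusted p = 0.914).

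**Figure D3:**
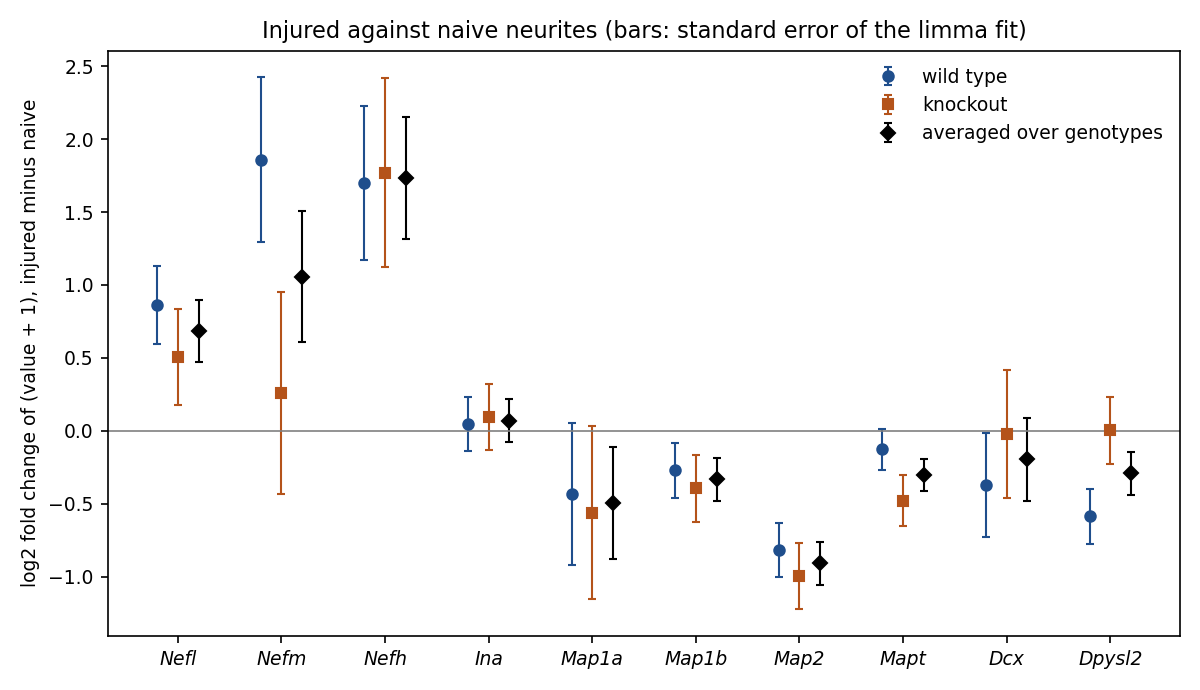
Log2 fold change of (value + 1), injured minus naive neurites (vertical axis), of each gene in wild type, in the knockout and averaged over genotypes; bars are the standard error of the limma fit. Nefl, Nefm and Nefh lie above 0 and Map2 lies lowest, at -0.91 averaged over genotypes, the only value past the threshold.

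The make-up of the neurofilament transcripts differed accordingly. Of the summed value of the 4 subunits, Ina made up 75.7% ± 3.50 in naive and 59.4% ± 5.74 in injured wild-type libraries (SD, n = 3 each), and 77.9% ± 1.85 and 71.7% ± 2.49 in the knockout (SD, n = 2 each). The share of Nefl was 19.6% and 27.5% in wild type and 18.0% and 22.0% in the knockout. Nefm took 4.34% and 11.3% in wild type but 3.77% and 4.24% in the knockout. Nefh stayed a small part, at 0.405% and 1.77% in wild type and 0.371% and 2.10% in the knockout.

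**Figure D4:**
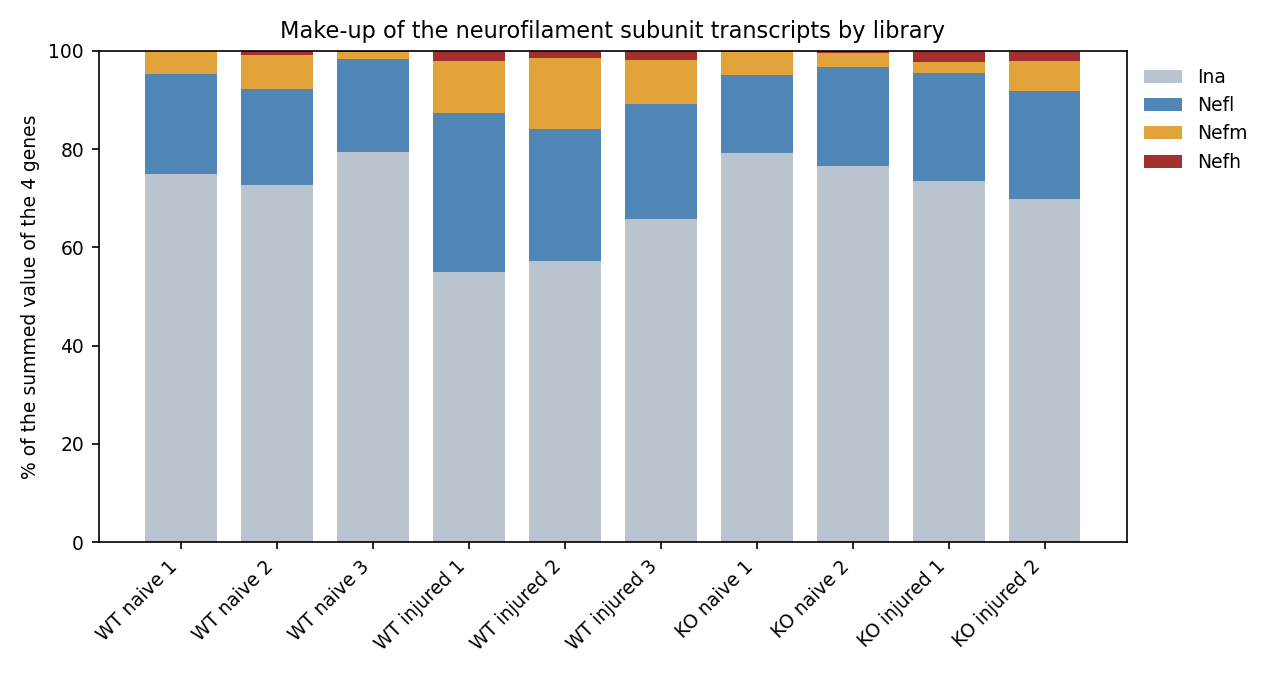
Share of each neurofilament subunit gene in the summed value of the 4 genes (vertical axis, percent) in each library (bars; WT, wild type; KO, knockout). Ina took 72.6% to 79.5% of the sum in naive libraries and 55.0% to 73.4% in injured ones, and the share of Nefh was visible mainly in injured libraries.

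The ratio of Ina to Nefl was 3.70, 3.71 and 4.21 in naive and 1.70, 2.13 and 2.82 in injured wild-type libraries, and 5.01 and 3.81 in naive and 3.32 and 3.19 in injured knockout libraries. No injured library reached a naive one. The log2 ratio fell by 0.63 averaged over genotypes, by 0.83 in wild type and by 0.42 in the knockout (exact permutation test within genotype, two-sided, p = 0.01667, the smallest possible, adjusted p = 0.0333).

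Nefh also rose relative to Nefl. Its ratio to Nefl was 0.00414, 0.0415 and 0.0168 in naive and 0.0626, 0.0558 and 0.0770 in injured wild-type libraries, and 0.0138 and 0.0260 in naive and 0.0993 and 0.0912 in injured knockout libraries. The 5 injured libraries all lay above the naive ones. The log2 ratio was higher by 2.25 averaged over genotypes (exact permutation test, p = 0.01667, the smallest possible, adjusted p = 0.0333), and by 1.05 when 1 was added to both values. The log2 ratio of Nefm to Nefl was higher by 1.18 in wild type and lower in the knockout (-0.25), with 0.46 averaged and overlapping groups (exact permutation test, p = 0.483, adjusted p = 0.58).

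Mapt over Map2, Nefh over Nefl and Ina over Nefl all had the smallest possible p. Their adjusted p of 0.0333 rests on the 3 having it together, and the last 2 share Nefl. These 3 ratios kept their direction with any 1 library left out. Their adjusted p then was 0.05 to 0.1, in a design whose smallest p before adjustment was 0.01667. With the libraries that stood apart left out, Mapt over Map2 was higher by 0.69, Nefh over Nefl higher by 1.96 and Ina over Nefl lower, at -0.62 (exact permutation test, adjusted p = 0.133, 0.1 and 0.1, where 0.0333 is the smallest p before adjustment).

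**Figure D5:**
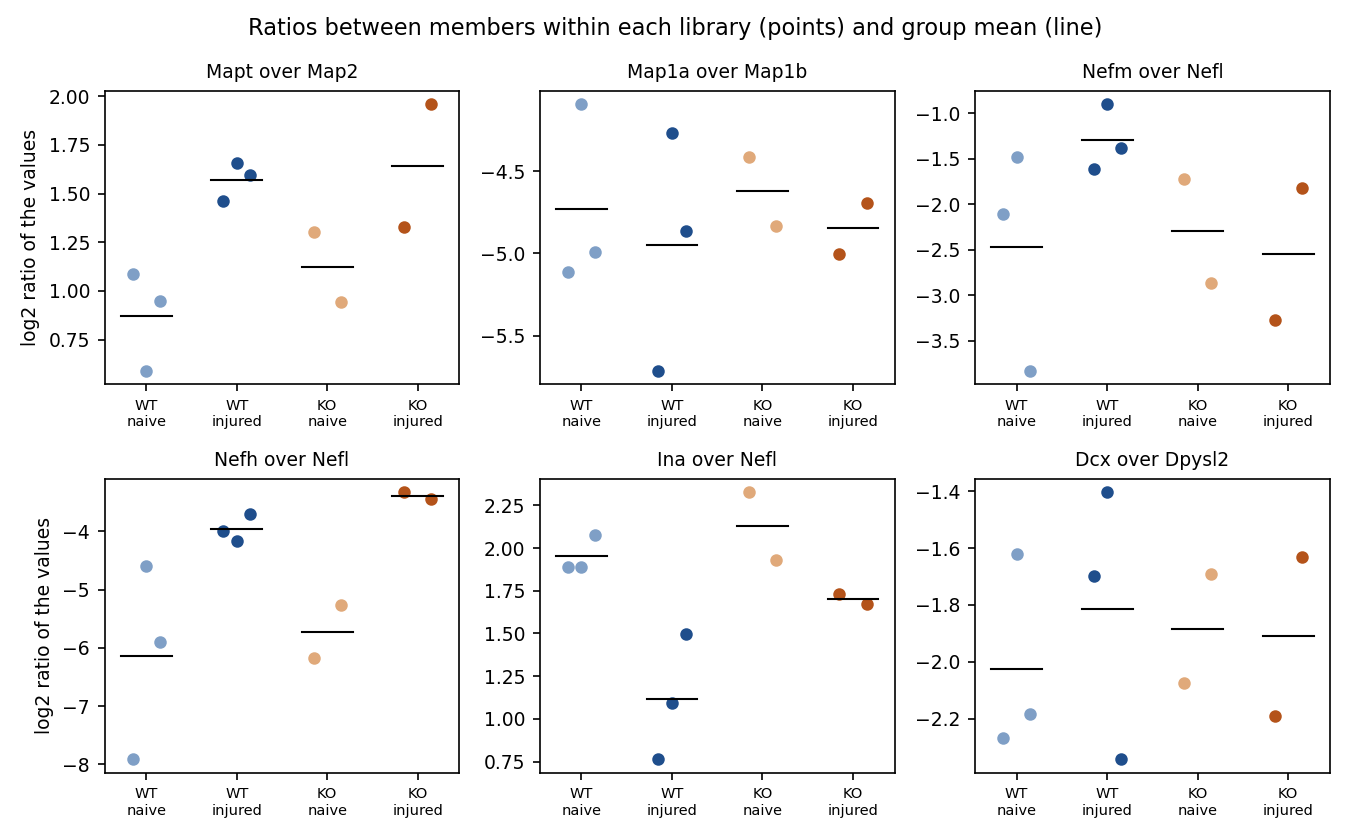
Log2 ratio between the values of 2 members (vertical axis) within each library, by group, for the 6 ratios tested. Points are libraries and lines are group means; Mapt over Map2 and Nefh over Nefl were higher and Ina over Nefl lower in all 5 injured libraries, and the other 3 ratios overlapped.

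Part of the neurofilament signal could be shared between genes, since the libraries carry no strand. Nefl (chr14:68083863-68089095, plus strand) and Nefm (chr14:68082590-68124846, minus strand) share 1108 exon bases, at chr14:68083863-68084970, through the longer annotated transcript of Nefm. That is 32.8% of the exon bases of Nefl and 19.2% of those of Nefm, so the split of reads between the 2 genes is uncertain there. Ina (chr19:47014698-47025327, plus strand) shares 14.1% of its exon bases with Nt5c2, and Map2 (chr1:66175273-66442583, plus strand) 0.754% with an antisense gene. Nefh (chr11:4938754-4948064, minus strand), Mapt (chr11:104231390-104332090, plus strand) and Map1b (chr13:99421446-99516540, minus strand) share none. Map1a (chr2:121289600-121310832, plus strand) shares 2.24% with Ppip5k1. Apart from these overlaps, no near-identical copy was found in the annotated transcripts. For each member the transcript with the longest 3' untranslated region was searched.

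Doublecortin and Crmp2 gave no call. Dcx was at 49.5, 82.7 and 46.3 in naive and 53.4, 68.1 and 23.7 in injured wild-type libraries, and at 51.1 and 65.8 in naive and 51.5 and 63.3 in injured knockout libraries. The groups overlapped, and the averaged effect of -0.20 ± 0.28 (limma, adjusted p = 0.862) turned to 0.023 without wild-type injured replicate 3, the lowest library. Dpysl2 was at 238, 254 and 210 in naive and 173, 180 and 120 in injured wild-type libraries, which did not overlap. In the knockout it was at 215 and 212 in naive and 235 and 196 in injured libraries, on either side of the naive values. Its effect was -0.59 ± 0.19 in wild type and 0.01 ± 0.23 in the knockout (limma, adjusted p = 0.193 and 1). The log2 ratio of Dcx to Dpysl2 differed by 0.09 (exact permutation test, p = 0.75, adjusted p = 0.75).

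Counted over the 10 genes, none passed in wild type, where 0.948% of all genes did, and 5 had an unadjusted p under 0.05, as did 13.9% of all genes (Nefl, Nefm and Nefh higher, Map2 and Dpysl2 lower). None passed in the knockout either, where 0.0573% of all genes did, with 3 at an unadjusted p under 0.05, against 5.73% of all genes. Averaged over genotypes 1 passed, with 6 at an unadjusted p under 0.05, where 11.4% of all genes had one. Injured and naive libraries did not overlap for 5 of the 10 genes in wild type, against 17.8% of all genes tested, and for 6 in the knockout, against 35.5%. The median effect over the 10 genes was -0.20 in wild type, -0.0075 in the knockout and -0.24 averaged, against 0.0092, -0.087 and -0.044 over all genes tested. That median joins the 4 neurofilament genes, all above 0 averaged with a median of 0.87, and the 4 microtubule-associated genes, all below 0 with a median of -0.41. Scaling to equal neuron markers moved the median of all genes by 0.53 in wild type and 0.44 averaged. With it Nefl and Nefh passed averaged over genotypes (1.24 ± 0.25 and 2.05 ± 0.45, limma, adjusted p = 0.0285 and 0.0337), and Map1a, Map1b, Mapt, Dcx and Dpysl2 changed sign, to 0.0085, 0.23, 0.26, 0.36 and 0.27.

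The genotype comparison asks whether loss of Cpeb1, an RNA-binding protein that regulates polyadenylation and translation, goes with other levels of these transcripts. In naive neurites none of the 10 was called and none had an unadjusted p under 0.05 (limma, 0.146% of all genes passed). The effects, knockout minus wild type, ran from -0.17 for Map2 to 0.16 for Ina, and the groups overlapped for all 10, while 22.6% of all genes did not overlap. In injured neurites none was called, where 0.261% of all genes passed in limma, and 2 had an unadjusted p under 0.05, against 10.5% of all genes. Nefm was lower in the libraries labelled knockout (4.59 and 16.4 against 20.5 to 31.2, -1.49 ± 0.63, limma, adjusted p = 0.432). Dpysl2 was higher in them (235 and 196 against 120 to 180, 0.46 ± 0.21, limma, adjusted p = 0.462). Mapt was lower in them too (448 and 448 against 512 to 562, -0.27 ± 0.16, limma, adjusted p = 0.578). For these 3 of 10 genes the groups did not overlap, as for 21.9% of all genes tested. Without wild-type injured replicate 1, whose Cpeb1 lay in the knockout range, Nefm gave -1.41 ± 0.73 and Dpysl2 0.54 ± 0.23 (limma, adjusted p = 0.478 and 0.373). With any 1 library left out, the effect of Nefm ranged from -2.32 to -0.67. Over all alternatives the effect of Dpysl2 ran from 0.048 to 0.81, with an adjusted p of up to 0.942 in limma. The nuclear RNA sum, 6095 to 7328 in injured wild type and 1824 to 2973 in injured knockout libraries, separated the same groups. So did the neuron marker sum, at 1907 to 2647 and 2794 to 3768 in the same order. The part of either sum in these values and in the wild-type injury effects of Nefm and Dpysl2 was not tested.

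The difference of the injury effects between genotypes was tested directly. No gene in the whole table passed (0.0% of 15712, limma), with 979 at an unadjusted p under 0.05, none of them among the 10. The difference, knockout minus wild type, was -1.60 ± 0.89 for Nefm (limma, adjusted p = 0.807) and 0.59 ± 0.30 for Dpysl2 (limma, adjusted p = 0.804). For Map2 the difference was -0.17 ± 0.29 and for Nefh 0.07 ± 0.84 (limma, adjusted p = 0.954 and 0.994), intervals too wide to say that the genotypes responded alike.

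The other intermediate filament genes held the one call among the companion lists. Of Prph, Vim, Nes, Gfap, Synm and Sync, 1 of 6 passed, Vim in wild type, which encodes the vimentin of glia and progenitors. Vim was at 67.6, 109 and 169 in naive and 308, 320 and 644 in injured wild-type libraries (1.88 ± 0.39, limma, adjusted p = 0.0435), and at 189 and 102 in naive and 167 and 363 in injured knockout libraries (0.83 ± 0.48, limma, adjusted p = 0.933). The knockout groups overlapped. The astrocyte sums given above were higher in injured libraries of both genotypes. The part of glia in the rise of Vim was not tested.

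Prph encodes peripherin, a neuronal filament protein that can co-assemble with neurofilaments. It was at 2.80, 4.13 and 1.18 in naive and 15.7, 6.30 and 8.97 in injured wild-type libraries, and at 0 and 1.14 in naive and 3.84 and 6.84 in injured knockout libraries. In each genotype the injured libraries lay above the naive ones, and the averaged effect of 1.84 ± 0.47 did not pass (limma, adjusted p = 0.118). Gfap, the filament protein of astrocytes, gave 1.05 ± 0.32 (limma, adjusted p = 0.206).

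Among the relatives of doublecortin and Crmp2 none of 6 was called in limma, and 5 of 6 had an averaged effect below 0, with a list median of -0.35. Dpysl5 was at 186 to 233 in naive and 113 to 132 in injured wild-type libraries (-0.79 ± 0.17, limma, adjusted p = 0.0548), and its averaged effect was -0.56 ± 0.14 (limma, adjusted p = 0.106). Dpysl3 and Crmp1, 2 more members of the collapsin response mediator family, were lower in all 5 injured libraries than in all naive ones, with averaged effects of -0.36 ± 0.11 and -0.33 ± 0.11 (limma, adjusted p = 0.205 and 0.238), a separation that 1.79% of all genes showed. In wild type 5 of the 6 lay below 0, as did 5 of the 6 neuron markers, with medians of -0.48 and -0.62.

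The other companion lists gave no call in injury averaged over genotypes. Of 10 other structural microtubule-associated genes, 5 lay below 0 and 5 above, and Map9 had the smallest p (-0.63 ± 0.18, limma, adjusted p = 0.173). Linkers and turnover factors of neurofilaments had a median of -0.03 over 6 genes, with Trim2, a ubiquitin ligase that acts on Nefl, at -0.22 ± 0.17 (limma, adjusted p = 0.672). Kinases that act on tau, microtubule-associated proteins and neurofilaments had a median of -0.15 over 12 genes, with Mark4 at -0.76 ± 0.37 (limma, adjusted p = 0.452). Genes that bind the plus or minus ends of microtubules had a median of -0.13 over 11, and Mapre1, which encodes the plus-end protein EB1, was at 114 to 142 in naive and 181 to 236 in injured wild-type libraries but at 136 to 142 and 130 to 138 in the knockout (averaged 0.30 ± 0.14, limma, adjusted p = 0.433). Severing and tubulin modifying genes had a median of -0.05 over 12 tested of 13, with the tubulin acetyltransferase gene Atat1 at -0.28 ± 0.16 (limma, adjusted p = 0.555).

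The members were also related to each other and to other genes over the 10 libraries, which share the injury contrast, the scaling and the cell mixture, so the correlations are descriptions. Across these 10 libraries, Pearson's r of log2 values was 0.72 between Nefl and Nefm, 0.78 between Nefl and Nefh, and 0.30 between Nefl and Ina. It was 0.71 between Map2 and Mapt, 0.76 between Map2 and Map1b, and 0.73 between Dcx and Dpysl2, and -0.84 between Map2 and Nefh. Outside the 10, Sap30, Tob1, Tiparp and Stmn4 were among the genes most like the mean pattern of the 4 neurofilament genes (r from 0.928 to 0.961). Stmn4 encodes a tubulin-binding stathmin, and was at 267 to 288 in naive and 436 to 598 in injured wild-type libraries, and 324 to 329 and 399 to 463 in the knockout. Most like the mean pattern of Map1a, Map1b, Map2 and Mapt were Csnk1g2, Wwc1, Ids, Slc25a46 and Pacsin1 (r from 0.921 to 0.969). Pacsin1, a neuronal membrane-bending protein of synaptic vesicle endocytosis, was at 40.0 to 42.7 in naive and 15.9 to 21.7 in injured wild-type libraries, and 37.4 to 44.0 and 13.7 to 14.1 in the knockout.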

How the data were processed

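Poly(A) RNA of 10 neurite libraries was prepared with Smart-seq2 (1 ng RNA, 14 cycles of PCR, 500 pg cDNA for tagmentation, 11 further cycles), per the labels' protocols, which gives no strand. The submitters' processing notes name STAR 2.4.2a, RSEM 1.2.21 and mm10. The authors deposited per-gene values taken here as FPKM. They lie on multiples of 0.01 times 1 factor per library (0.901 to 1.232), whose kind is not stated, and totals with it undone stay below those of TPM (805982 to 950912), so that FPKM and TPM cannot be told apart. Of 45195 gene IDs 44548 matched GENCODE M21 (mm10).

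Groups came from the labels. Values were tested as log2(value + 1) with limma 3.58.1 in R 4.3.3 (a single fit of the 10 libraries with 4 group means, eBayes using the mean-variance trend, residual degrees of freedom 6, prior 6.8) over the 15712 genes that reached a value of 1 in 2 libraries or more. The Benjamini-Hochberg adjustment ran over all these genes within each comparison, with a threshold of 0.05. The log2 ratios between members were tested by an exact permutation test within genotype, adjusted over 6. Both were tested on simulated data. Copies of each member's transcript with the longest 3' untranslated region were searched with blastn 2.17.0 (identity of at least 95% over at least 150 bases). Same-numbered libraries did not deviate together (correlations of -0.0484 to 0.0409), so numbers were not taken as pairs. Deviations within a knockout group of 2 libraries are opposite by construction, and the labels do not settle the pairing.

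The members, the lists and the tests were chosen with earlier results of these data known. The genes named are all 10 members, of each companion list the 3 or fewer with the smallest unadjusted p in injury averaged over genotypes, and the 5 genes with the highest correlation with each member group, of which 1 is not reported here. Markers and Cpeb1 are named beside the results they touch. Alternatives were the pseudocount (0.1 and 5), the filter, 3 scalings, no trend, fits of the compared groups only, the replicate block, protein-coding genes only and each library left out. Added after seeing the data were the scaling to neuron markers and the omission of the libraries that stood apart.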

Additional observations from a re-analysis of the deposited data

How the results depend on the processing

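Of 816 alternative values for 36 effects of the 10 genes, 764 kept direction and call, 33 turned the direction of a value that had not passed, 13 gained and 6 lost a call. The cause was not tested where none is named. The call of Map2 averaged over genotypes was lost with no filter on low values (adjusted p = 0.0550), where more genes are tested, with no mean-variance trend (0.190), with scaling to neuron markers (0.250) and without 1 of 3 libraries named in the report, and held in the other 16 of 22 alternatives. With no trend Nefh was called in its place (adjusted p = 0.0441).

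In wild type 1 member, Map2, passed with a minimum value of 5, quantile normalization, median-ratio scaling, equal column totals or protein-coding genes only, and 0 to 1 with a library left out. With scaling to neuron markers 3 passed there (Nefl, Nefm and Nefh) and 2 averaged over genotypes. With no filter 0 members passed averaged, and 0 to 1 with a library left out. In the other 4 comparisons no alternative gave a called member.

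The number of genes called in wild type was 149 in the main result. It was 25 with no filter, 77 with no trend, 17 with the compared groups only, 63 without the libraries that stood apart, 1135 with scaling to neuron markers, and 35 to 311 with a library left out. In the knockout the 9 genes became 1 with a pseudocount of 0.1, 33 with no filter, 4 with quantile normalization, 1 with no trend, 0 with the compared groups only, 1 with scaling to neuron markers, and 0 to 20 with a library left out. Averaged, the 89 became 52 with no filter, 53 with no trend, 473 with scaling to neuron markers, and 32 to 160 with a library left out. By genotype, the 23 genes in naive neurites became 52 with no filter, 15 with the compared groups only, and 5 among protein-coding genes, with 17 to 27 when a library was left out. The 41 in injured neurites became 15 with the compared groups only, 10 among protein-coding genes, and 24 to 57 with a library left out. The interaction gave 13 with no filter, 3 with no trend, and 0 to 2 with a library left out. Of the wild-type calls 73.8% were higher, against 61.0% with quantile normalization, 41.7% with equal column totals and 96.9% with scaling to neuron markers.

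Scaling turned the effect of Ina in wild type to -0.062 (quantile), -0.021 (median ratio) and -0.24 (equal totals), and that of Dcx in the knockout to 0.032, 0.076 and 0.24 in the same order. The genotype effect of Ina in naive neurites became -0.045 with equal totals and -0.038 with scaling to neuron markers. The latter gave, in wild type, 0.16 for Map1a, 0.40 for Map1b, 0.55 for Mapt, 0.29 for Dcx and 0.083 for Dpysl2. In the knockout it gave 0.060 for Map1b and 0.43 for Dcx. Averaged it gave 0.0085 for Map1a, 0.23 for Map1b, 0.26 for Mapt, 0.36 for Dcx and 0.27 for Dpysl2. Without the libraries that stood apart, Dcx in wild type was at 0.067.

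With a library left out, Ina ranged from -0.074 to 0.15 in wild type, from -0.073 to 0.26 in the knockout and from -0.013 to 0.15 averaged. Dcx ranged from -0.67 to 0.067, -0.20 to 0.16 and -0.35 to 0.023. In the knockout Nefm ranged from -0.56 to 1.08 and Dpysl2 from -0.12 to 0.14. Mapt over Map2 ranged from 0.45 to 0.77, Nefh over Nefl from 1.81 to 2.64, Ina over Nefl from -0.73 to -0.53 and Dcx over Dpysl2 from -0.048 to 0.23. Without the libraries that stood apart the first 3 were 0.69, 1.96 and -0.62, with calls lost.

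The replicate block gave 5 called genes in the knockout and left all member calls as they were (Map2 averaged, adjusted p = 0.0243 in limma). In the paired form, the ratios Mapt over Map2 (0.61), Nefh over Nefl (2.25) and Ina over Nefl (-0.63) had an adjusted p of 0.125 (exact permutation test). With so few pairs, the smallest p that the paired form can give lies above the threshold even before adjustment. No ratio could pass in it, so no conclusion on these ratios is drawn from it. Whether the numbers pair the libraries is not given by the labels. No depth is known, so no limit of detection can be given for Nefh.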
